A study of Mus musculus with 4 samples.

Results

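Genes that are commonly used as references in liver RNA measurements were examined in fasted and refed mouse liver. The members are Gapdh, Tbp, Ppia, B2m, Gusb, Pgk1, Ywhaz and Polr2a, that is 8 genes of the 31829 gene names on the array. They were taken by gene name, with all their probes, and 17 of the 39429 probes belonged to them, on 35 of the 43020 gene spots of an array. Livers came from male C57BL/6J mice aged 8 to 12 weeks, either deprived of food for 24 h or deprived of food for 24 h and then fed for 2 h, with no other treatment or allele in either group. RNA of 4 fasted and 4 refed livers was compared on 4 two-colour oligonucleotide arrays, each with 1 liver of each group, and the arrays are numbered as replicates 1 to 4 (n = 4). On such an array the RNA of one liver carries the dye Cy5 and that of the other carries Cy3, and each probe gives one ratio. The fasted liver carried Cy5 on replicates 1 and 2 and Cy3 on replicates 3 and 4. Every ratio below is a log2 ratio of fasted over refed liver, so a positive value is a higher signal in the fasted liver.

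A reference gene serves as the denominator in RT-qPCR and blots: the amount of a target is divided by that of a gene assumed to hold steady, so that differences in RNA input cancel. Any change of the reference itself passes into every scaled target with the opposite sign. Feeding shifts carbohydrate metabolism, secretion and translation in hepatocytes, and genes of these systems include several of the usual references. The study itself scaled its RT-qPCR to Hprt. The members come from different systems. Gapdh and Pgk1 encode glycolytic enzymes that also run in reverse during gluconeogenesis. Tbp binds TATA elements as part of TFIID, and Polr2a is the largest subunit of RNA polymerase II. Ppia is cyclophilin A, a peptidyl-prolyl isomerase. B2m is the light chain of MHC class I, Gusb is lysosomal beta-glucuronidase, and Ywhaz is the 14-3-3 zeta adaptor protein.

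None of the 8 genes was called as different between fasted and refed liver, where a call needs both a difference of 1.5-fold or more and an adjusted p below 0.10 from limma. Among all kept probes 3.78% were called, 335 higher and 410 lower in fasted liver. With median centring in place of loess, 26.6% of all calls were higher, against 44.97% here, and with no normalization within arrays 31.9% were. Of the 17 probes, 16 were kept, and 0 of these 16 was called. At an unadjusted p under 0.05 the number was 1, Gusb, against 22% of all genes by their brightest probe. The rebuilt SAM test also called 0 of the 8 genes, where it called 377 higher and 440 lower among all kept probes. The 95% confidence interval of the ratio lay inside the 1.5-fold limits, which are ±0.58 on the log2 scale, for all 16 kept probes, as it did for 83.3% of all kept probes. The number inside the limits was 11 with median centring, 12 with no normalization within arrays and 14 with the background fit on every spot. The median log2 ratio over the 8 genes, each by its brightest kept probe, was -0.01, and that of all kept probes was 0.00. Loess sets the centre of each array near 0, so every ratio is relative to that centre. With median centring these medians were -0.10 and -0.06. The median SD over arrays was 0.23 for the 8 genes and 0.18 for all kept probes.

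The refed liver on replicate 3 stood apart in markers of pancreatic acinar cells. Transcripts of pancreatic acinar cells were higher in it, with a mean log2 ratio of -3.26 over the 4 of 9 acinar markers that were kept, against 0.04 to 0.06 on the other arrays. Cfd, the 1 of 3 adipocyte markers that was kept, was at -1.37 on replicate 3, against -0.22, 0.55 and 0.42 on replicates 1, 2 and 4. The hemoglobin genes and Alas2 together averaged 1.73 on replicate 1 and 1.99 on replicate 3, against -0.27 and 0.20 on replicates 2 and 4. Means of 6 hepatocyte markers lay between 0.00 and 0.36 on the 4 arrays. Without replicate 3, 0 of the 16 member probes was called and 16 intervals lay inside the limits, against 14 without replicate 1 and 15 without replicate 2. The part of these cell types in the ratios of the members was not tested. In whole liver, fewer cells of a type and less RNA per cell cannot be told apart. Precision is limited throughout by having 4 arrays.

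**Figure D1:**
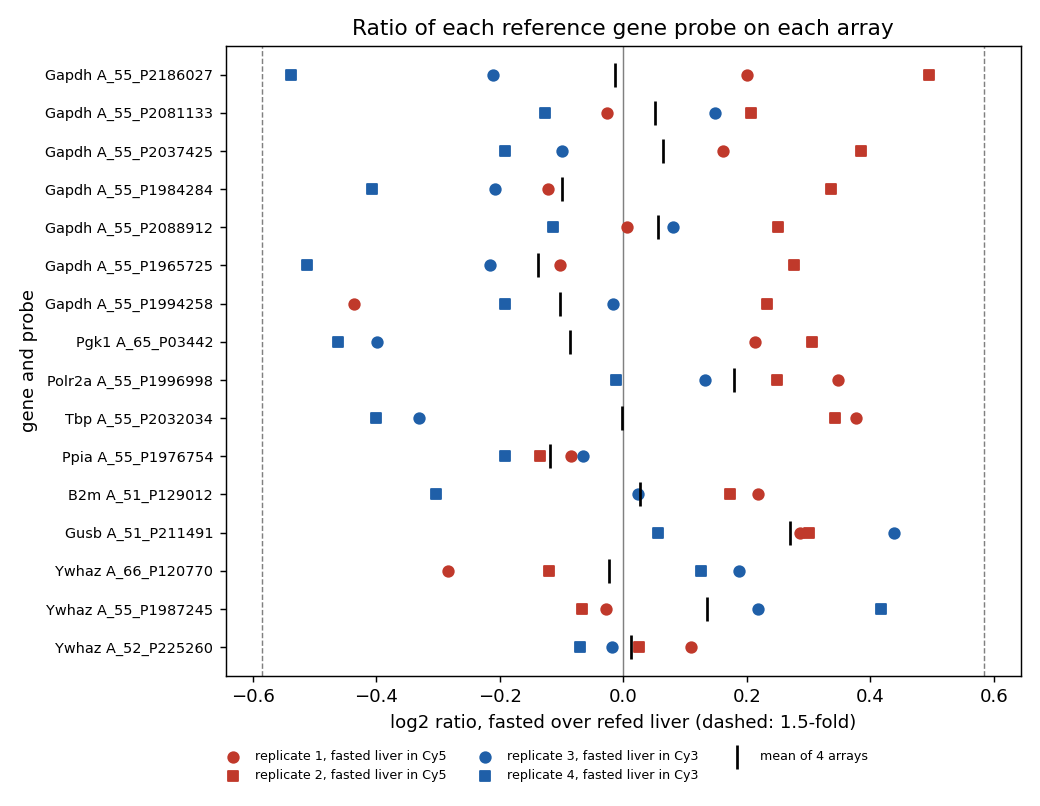
Log2 ratio of fasted over refed liver (x axis) of the 16 kept probes of the 8 genes (y axis), with 1 point per array coloured by the dye of the fasted liver, a bar for the mean of 4 arrays and dashed lines at 1.5-fold. Gusb lies right of 0 and Ppia left of 0 on all 4 arrays, while Tbp, Pgk1 and the brightest Gapdh probe lie right of 0 with the fasted liver in Cy5 and left of 0 with it in Cy3.

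The probe sequences matter most for Gapdh, because copies of its messenger RNA are scattered over the mouse genome. The array had 7 probes named Gapdh. The files place 6 of them on chromosome 6 and probe A_55_P2037425 on chromosome 8 (mm9 chr8:94212520-94212579, minus strand), although all 7 carry the accession of the Gapdh messenger RNA. The chromosome 8 probe is given whole:
Gapdh A_55_P2037425: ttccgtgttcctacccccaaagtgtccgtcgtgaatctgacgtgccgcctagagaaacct
Probes A_55_P2186027 and A_55_P2081133 are placed on overlapping positions of chromosome 6, yet within the 51 shared positions 5 bases differ. They are shown over the same 30 bases (mm9 chr6:125111899-125111928, minus strand), with the differing bases in capitals:
Gapdh A_55_P2081133: gGgcctagggagccctCcctaTtctTttga
Gapdh A_55_P2186027: gAgcctagggagccctAcctaCtctCttga
Of the 7 Gapdh probes, 6 had at least 1 near-identical probe of another name on the array, defined as at least 40 aligned bases with at least 90% identity, 10 such probes in all. The Pgk1 probe had 1, identical over 53 bases. No probe of Tbp, Ppia, B2m, Gusb, Ywhaz or Polr2a had one. Signals of Gapdh and Pgk1 probes may therefore include related transcripts, and their values are given per probe.

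Gapdh, glyceraldehyde-3-phosphate dehydrogenase, did not pass the test with any of its 7 probes, and the probes did not give 1 profile. The brightest, A_55_P2186027, had log2 ratios of 0.20, 0.50, -0.21 and -0.54 on replicates 1 to 4. Its ratio was thus positive on both arrays with the fasted liver in Cy5 and negative on both with the fasted liver in Cy3. The mean was -0.01 ± 0.45 (SD, n = 4), with a 95% interval from -0.42 to 0.40, so that a change of up to 1.34-fold lower or 1.32-fold higher remained within the interval. Probe A_55_P2081133, with the other form of the shown stretch, gave -0.03, 0.21, 0.15 and -0.13, and a mean of 0.05 ± 0.15. The groups of arrays split by dye overlapped for this probe and did not for A_55_P2186027.

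The chromosome 8 probe of Gapdh gave 0.16, 0.39, -0.10 and -0.19, with a mean of 0.06 ± 0.26. Over the 7 probes the means ran from -0.14 to 0.06. On replicate 1 single probes lay between -0.44 and 0.20, a range in which 3 of 7 were above 0. On replicate 2 all 7 were above 0 and on replicate 4 0 of 7 were. The SD between Gapdh probes on 1 array was 0.10 to 0.21, while their SDs between arrays ran from 0.15 to 0.45. The 10 near-identical probes of other names had mean ratios from -0.17 to 0.06 and 0 of them was called. Those named EG545741, Gm10313, Gm5523, Gm12070 and Gm10293 were positive with the fasted liver in Cy5 and negative with it in Cy3. The others did not show this split.

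Pgk1, phosphoglycerate kinase 1, had a single probe (mm9 chrX:103398640-103398699), with ratios of 0.21, 0.31, -0.40 and -0.46. As for the brightest Gapdh probe, its sign followed the dye of the fasted liver on every array. The mean was -0.09 ± 0.40 (SD, n = 4), with an interval from -0.46 to 0.28. The near-identical probe A_66_P111747, annotated in the files as a phosphoglycerate kinase transcript, gave -0.15, -0.16, 0.02 and -0.02 and did not show this split. The mean ratio of Pgk1 was 0.26 on replicates 1 and 2 and -0.43 on replicates 3 and 4.

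Of the rest of glycolysis, the 8 genes reported here were all kept, and 0 was called, where 3.95% of all genes were called by their brightest probe. At an unadjusted p under 0.05 the number was 0, against 22% of all genes, and the rebuilt SAM test called 0. Their log2 ratios ran from -0.14 to 0.36 with a median of 0.01, beside 0.00 for all kept genes. Intervals lay inside the 1.5-fold limits for 6 of the 8, and for 13266 of all 16084 kept genes.

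Tbp, the TATA-binding protein, had 2 probes that differed in usefulness. Probe A_55_P2032034 (mm9 chr17:15654250-15654309) was kept and gave 0.38, 0.34, -0.33 and -0.40. Both arrays with the fasted liver in Cy5 were positive and both others were negative, by nearly equal amounts. The mean was 0.00 ± 0.42 (SD, n = 4) and the interval ran from -0.39 to 0.38. The median signal of this probe was 130 to 273 per channel. Probe A_51_P461828 sat on 10 spots of each array and lies across an exon junction by its listed positions, which span 668 bases (mm9 chr17:15650578-15651245). It is shown because its repeated spots did not make it usable:
Tbp A_51_P461828: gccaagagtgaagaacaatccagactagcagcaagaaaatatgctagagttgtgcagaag
Its median signal was 35.05 to 78.4 per channel, and it was well above background in the fasted liver on 1 array and in the refed liver on 2, so it was left out and gives no fold change. The 13 TFIID subunits other than Tbp were all kept and 0 was called, against 3.95% of all genes. Their log2 ratios ran from -0.47 to 0.26 with a median of -0.17. At an unadjusted p under 0.05 the number was 4 of 13, against 22% of all genes by their brightest probe, and the rebuilt SAM test called 0.

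Polr2a, the catalytic core subunit of RNA polymerase II, was measured by a probe at mm9 chr11:69547912-69547971. Its median signal was 122 to 285.5 per channel. Its ratios were 0.35, 0.25, 0.13 and -0.01, so 3 of 4 arrays were above 0. The mean was 0.18 ± 0.16 (SD, n = 4), the interval ran from -0.03 to 0.39, and the adjusted p was 0.29. Fasted livers had levels of 7.66 to 7.96 and refed livers of 7.45 to 7.79 on the normalized log2 scale, and the ranges overlapped. Of the 11 other polymerase II subunits 0 was higher and 2 were lower in fasted liver, against 3.95% of all genes called. Polr2h, a subunit shared by all 3 nuclear polymerases, was lower at -0.65 ± 0.33 (adjusted p = 0.045), and Polr2i at -0.63 ± 0.08 (adjusted p = 0.011). Each was lower on all 4 arrays. Polr2i stayed called whichever replicate was left out, as did its other kept probe (-0.92 ± 0.25), while Polr2h was not called without replicate 1, 2 or 3 (adjusted p = 0.11, 0.12 and 0.11 in limma). Neither was called with the background fit on every spot, by the treat test or at a 2-fold limit. The median of the list was -0.07.

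Ppia and Gusb were the only member probes with 1 sign on all 4 arrays, 2 of 16, where 29.6% of all kept probes had 1 sign. The share among members was thus below that of the array, and neither gene passed the test. Both are shown by the first 30 bases of their probes:
Ppia A_55_P1976754: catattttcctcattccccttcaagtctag
Gusb A_51_P211491: ttagttttttggccttggctttgtgaactc
Ppia (mm9 chr11:6319737-6319796), cyclophilin A, gave -0.08, -0.13, -0.06 and -0.19. All 4 arrays were below 0, and the SD between them was the smallest among the 8 genes by brightest probe. The mean was -0.12 ± 0.06 (SD, n = 4), the interval ran from -0.29 to 0.05, and the adjusted p was 0.39. Levels in fasted livers were 15.62 to 15.96 and in refed livers 15.74 to 16.04, which overlapped. The root mean square of its 4 ratios was at percentile 18.55 of all kept probes, counted from the smallest. Of the 13 other cyclophilins 1 was called, Nktr, a large cyclophilin first described in natural killer cells, at -0.66 ± 0.33 (adjusted p = 0.042), beside 3.95% of all genes called. By this probe Nktr was not called without replicate 2 (adjusted p = 0.15) or without replicate 3 (adjusted p = 0.14). Its other kept probe gave -0.70 ± 0.12 (adjusted p = 0.011) and stayed called whichever replicate was left out. Nktr too was not called with the background fit on every spot, by the treat test or at a 2-fold limit. The median of the 13 was -0.11.

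Gusb, beta-glucuronidase, was higher in the fasted liver on each array but did not pass the test. Its probe (mm9 chr5:130465133-130465192) sat on 10 spots of each array and gave mean ratios of 0.29, 0.30, 0.44 and 0.06. Of the 40 single spots 37 were above 0, and the 3 below 0 were on replicate 4. Spots on 1 array had an SD of 0.07 to 0.10, against 0.16 between the 4 arrays.

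The mean ratio of Gusb was 0.27 ± 0.16 (SD, n = 4) with an interval from 0.06 to 0.48, an unadjusted p of 0.018 and an adjusted p of 0.13 in limma. It was the 1 of 16 member probes whose interval excluded 0, as did 21.6% of all kept probes, so this share was below that of the array. Levels were 9.93 to 10.13 in the 4 fasted livers and 9.64 to 9.87 in the 4 refed livers. The ranges did not overlap, which held for 1 of 16 member probes and for 13.6% of all kept probes. With a dye term the adjusted p of Gusb was 0.066, still under 1.5-fold. The interval included 0 without replicate 1 (mean 0.27), without replicate 2 (0.26) and without replicate 3 (0.21), and excluded it without replicate 4 (0.34). The 18 other lysosomal hydrolases had log2 ratios from -0.18 to 0.46 with a median of 0.13. Of them 0 was called, against 3.95% of all genes, and 0 by the rebuilt SAM test. An unadjusted p under 0.05 in limma was reached by 1 of the 18, against 22% of all genes.

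The promoter of Gusb is shown because the study concerns CREB, the factor that binds the cAMP response element, and because Gusb was higher in all 4 fasted livers. The RefSeq table (GRCm38.p6) held promoters of 7 of the 8 genes, from 250 bases before to 50 after the start. Of these 7, 1 held the full element TGACGTCA, against 1.79% of all 32851 promoters. It is drawn in capitals in the 82 bases of GRCm38.p6 chr5:130003024-130003105 (minus strand), and its first base lies 4 bases before the listed start:
Gusb promoter: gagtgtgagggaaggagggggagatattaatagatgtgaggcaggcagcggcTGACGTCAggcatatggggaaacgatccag
The element reads the same on both strands and contains the short element TGACG. The short element, searched on both strands, was in 5 of 7 promoters (B2m, Gusb, Polr2a, Ppia and Tbp) and in 20.8% of all. TATAAA, on either strand, was in those of B2m, Polr2a and Ppia and in 13.6% of all. CCAAT, on either strand, was in 2 of 7 (B2m and Pgk1) and in 37.4% of all, and GGGCGG, on either strand, in 4 of 7 (Pgk1, Polr2a, Ppia and Tbp) and in 35.7% of all. These are matches of letters in a window and say nothing on binding in these livers.

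**Figure D2:**
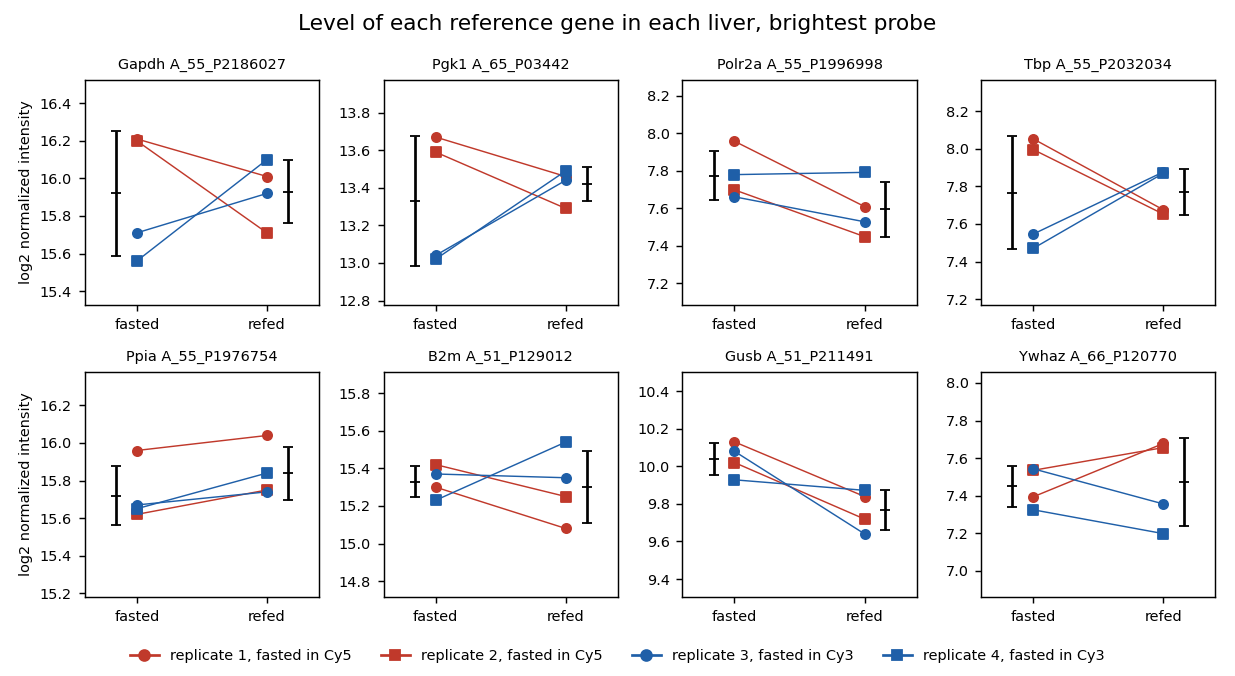
Normalized log2 intensity (y axis) of the brightest kept probe of each gene in the 4 fasted and 4 refed livers (x axis), with lines joining the livers of 1 array, colours for the dye of the fasted liver and black bars for mean ± SD. Each panel spans 1.2 log2 units and its level is not comparable with that of another panel. The fasted livers lie above the refed livers without overlap for Gusb at 9.93 to 10.13 against 9.64 to 9.87, and overlap for the other 7 genes.

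B2m, the MHC class I light chain, gave 0.22, 0.17, 0.02 and -0.30 on its single probe (mm9 chr2:121978401-121978460). Replicate 4 alone was below 0. The mean was 0.03 ± 0.24 (SD, n = 4) with an interval from -0.23 to 0.28. Of 10 other genes of class I antigen presentation, 0 was higher and 2 were lower in fasted liver, against 3.95% of all genes called. Calr, calreticulin, a lectin chaperone of the endoplasmic reticulum, was lower at -0.95 ± 0.30 (adjusted p = 0.015), and Pdia3, an oxidoreductase of the same compartment, at -0.93 ± 0.10 (adjusted p = 0.0043). Both stayed called whichever replicate was left out, but neither was called with the background fit on every spot, by the treat test or at a 2-fold limit. Both act in the folding of glycoproteins in general as well as in the loading of class I molecules. The median of the list was 0.05.

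Ywhaz, 14-3-3 zeta, had 3 kept probes on chromosome 15, and they disagreed in sign with respect to the dye. The brightest, A_66_P120770 (mm9 chr15:36701205-36701264), gave -0.28, -0.12, 0.19 and 0.13, with a mean of -0.02 ± 0.22 (SD, n = 4). Probe A_55_P1987245 gave -0.03, -0.07, 0.22 and 0.42, with a mean of 0.14 ± 0.23. Both were negative with the fasted liver in Cy5 and positive with it in Cy3.

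The remaining Ywhaz probe, A_52_P225260, whose listed positions span 141 bases, gave 0.11, 0.03, -0.02 and -0.07, the opposite order. Its mean was 0.01 ± 0.08 and its root mean square ratio was at percentile 2.86 of all kept probes. Its median signal was only 67 to 156 per channel, against median array backgrounds of 20 to 35. Signals of A_66_P120770 and A_55_P1987245 were 83 to 200 and 81 to 259. With an offset of 50 added to all signals, small ratios at such signals do not show a steady level. The intervals of all 3 included 0, the widest reaching 0.38. Of the 6 other 14-3-3 genes 0 was called, against 3.95% of all genes. Their log2 ratios ran from -0.49 to 0.05 with a median of -0.10. The rebuilt SAM test called 0, and 2 of 6 had an unadjusted p under 0.05, against 22% of all genes. Ywhag, 14-3-3 gamma, named here after its values were seen, was at -0.49 ± 0.11 (SD, n = 4), negative on all 4 arrays, with an adjusted p of 0.022 in limma but under 1.5-fold.

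The ratios were then set beside the dye orientation. The ratio had opposite signs in the 2 dye orientations, with both arrays of each in agreement, for 7 of 16 member probes and for 23.6% of all kept probes. A term for dye orientation in limma passed an adjusted p under 0.10 for 3 of 16 member probes, as for 14.7% of all. These were Tbp A_55_P2032034 with a log2 dye term of 0.36 (adjusted p = 0.035), Pgk1 with 0.35 (adjusted p = 0.039) and Gapdh A_55_P2186027 with 0.36 (adjusted p = 0.064). In each the Cy5 channel was the brighter one on all 4 arrays after loess normalization. The mean of Tbp was 0.36 on replicates 1 and 2 and -0.37 on replicates 3 and 4.

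The smallest dye terms among the 8 genes by their brightest probe were those of Ppia at 0.01 and Gusb at 0.02. For Gusb the mean was 0.29 on replicates 1 and 2 and 0.25 on replicates 3 and 4, and for Ppia -0.11 and -0.13. For B2m it was 0.20 and -0.14. The number of member probes with a dye term was 0 in Agilent's processed signals, with median centring and with no normalization within arrays, 1 with the background fit on all spots, and 0 without replicate 3 or without replicate 4. Livers of an orientation differ also as animals, and dye and animal cannot be told apart within 1 array.

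**Figure D3:**
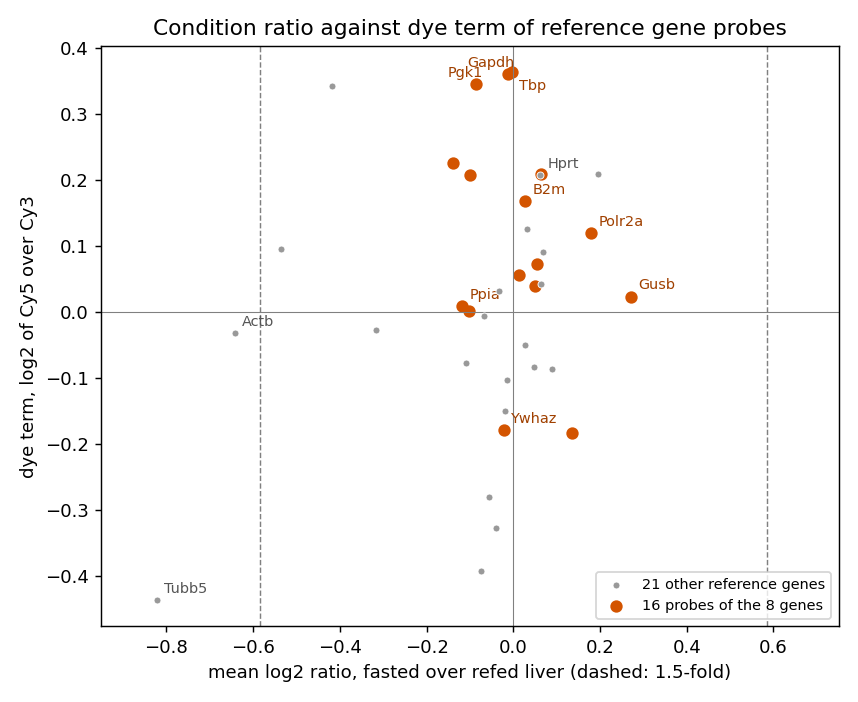
Mean log2 ratio of fasted over refed liver (x axis, dashed lines at 1.5-fold) against the dye term, log2 of Cy5 over Cy3 (y axis), for the 16 kept member probes (orange) and 21 other reference genes (grey, small; that of Hprt lies on a Gapdh probe). Tbp, Pgk1 and the brightest of the 7 Gapdh probes lie near 0 on the x axis with dye terms of 0.35 to 0.36, the other Gapdh probes have smaller ones, Gusb lies at 0.27 with a dye term of 0.02, and Actb and Tubb5 lie left of the limit.

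The difference between 2 genes on 1 array is free of any shift that the array puts on all genes, so its SD over the 4 arrays was taken for each of the 28 pairs of members, by brightest kept probe. The mean SD was 0.30, from 0.06 to 0.64. Pgk1 and Tbp kept closest together, with differences of -0.16, -0.04, -0.07 and -0.06 and an SD of 0.06. Their dye terms were nearly equal, 0.35 and 0.36, and drop out of the difference. Each ratio by itself had an SD of 0.40 and 0.42, so the small SD of the pair does not show that either gene was steady. Gapdh and Ywhaz were farthest apart, at 0.48, 0.62, -0.40 and -0.66 with an SD of 0.64. Here the difference was positive on both arrays of one orientation and negative on both of the other.

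Gusb and Ppia, which share a small dye term, had an SD of 0.11, but Gusb stood above Ppia by 0.39 on average and on all 4 arrays, from 0.25 to 0.50. A target scaled to Gusb would therefore differ from the same target scaled to Ppia by 1 log2 shift of 0.39 on average. Averaged over its 7 partners, the SD was lowest for Polr2a and B2m, 0.23 each, and highest for Ywhaz, 0.45. This order rests on 1 probe per gene. With the median over the probes of a gene, the mean SD of all pairs was 0.26 in place of 0.30. Ywhaz probe A_52_P225260 had an SD between arrays of 0.08, against 0.22 for the brightest Ywhaz probe. Ppia had the smallest SD of its own ratio, 0.06, and a mean SD against its partners of 0.27. The mean of all 8 genes was 0.16, 0.20, -0.03 and -0.22 on the 4 arrays, a mean of 0.03 ± 0.19. Its sign followed the dye orientation as well.

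**Figure D4:**
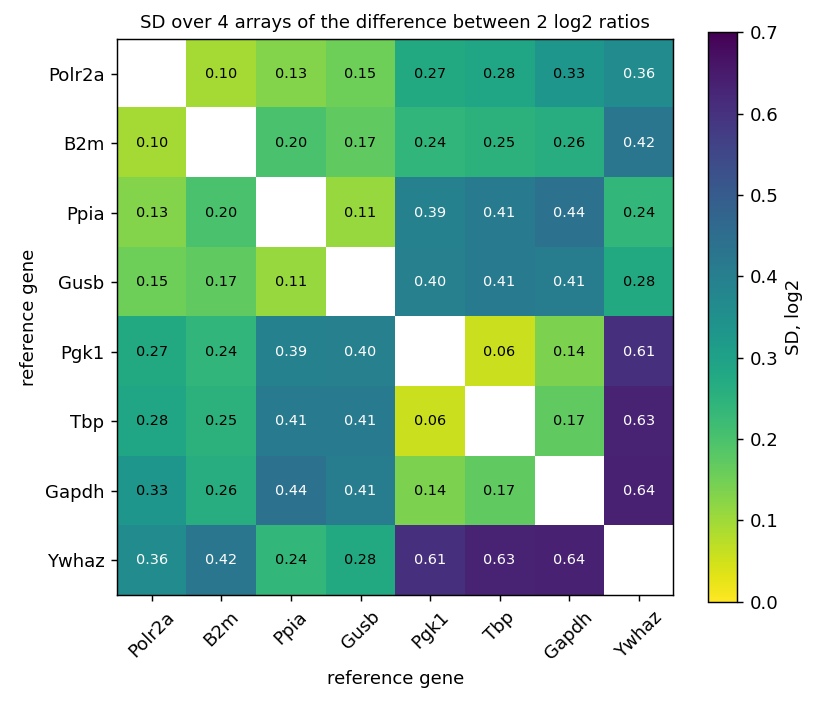
SD over 4 arrays of the difference between the log2 ratios of 2 reference genes (both axes list the 8 genes, ordered by their mean SD; colour and printed value give the SD in log2 units). By brightest kept probe, Pgk1 and Tbp have the lowest SD, 0.06, with dye terms of 0.35 and 0.36. Gapdh and Ywhaz have the highest SD, 0.64, and the Ywhaz row is the darkest with a mean of 0.45.

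Outside the 8 genes, 21 further genes that are used as references were all kept, and 0 was higher and 2 were lower in fasted liver, against 3.95% of all genes. Actb, the beta-actin of the cytoskeleton, was lower at -0.51, -0.84, -0.74 and -0.48, a mean of -0.64 ± 0.18 (SD, n = 4, adjusted p = 0.018), and both of its kept probes were called. Tubb5, a beta-tubulin, gave -0.93, -1.59, -0.37 and -0.40, a mean of -0.82 ± 0.57 (adjusted p = 0.076). Its ratios were larger in size with the fasted liver in Cy5. Without replicate 2 the mean of Actb was -0.58, under 1.5-fold, and it was called without each other replicate, while its other kept probe (-0.59 ± 0.29) was called without replicate 1 and not without replicate 2, 3 or 4. Neither Actb nor Tubb5 was called with the background fit on every spot, by the treat test or at a 2-fold limit. Leaving out any 1 replicate ended the call of Tubb5 (adjusted p from 0.12 to 0.16), and its ratio was -0.57 without replicate 2.

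Hprt, a purine salvage enzyme and the reference of the study's RT-qPCR, gave 0.23, 0.31, -0.04 and -0.25. It was above 0 on both arrays with the fasted liver in Cy5 and below 0 on the others. Its mean was 0.06 ± 0.26 with an interval from -0.20 to 0.33. Intervals lay inside the 1.5-fold limits for 17 of these 21 genes and for all 8 members by brightest probe. They did so for 13266 of all 16084 kept genes. The median of the 21 was -0.03.

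**Figure D5:**
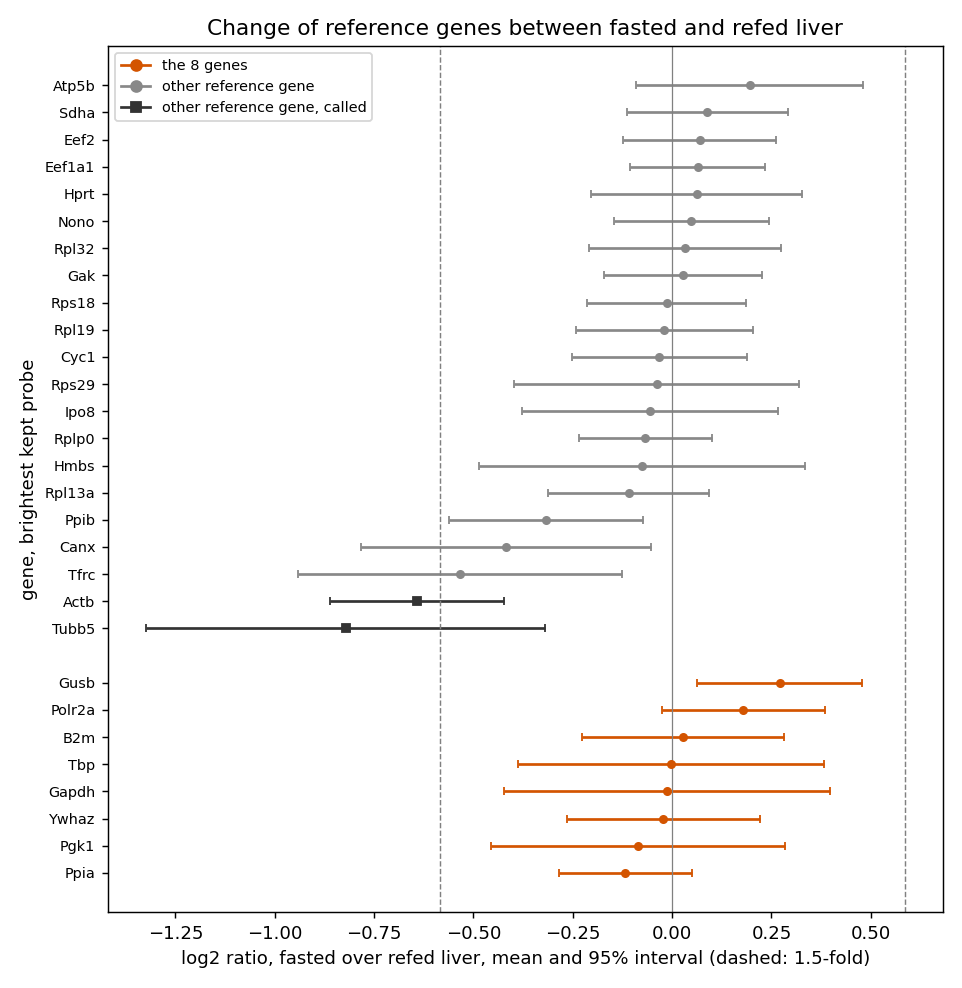
Mean log2 ratio of fasted over refed liver with its 95% confidence interval (x axis, dashed lines at 1.5-fold) for the brightest kept probe of the 8 genes (orange, below) and of 21 other reference genes (grey, above; black squares are called). All 8 orange intervals lie inside the limits, Gusb at 0.06 to 0.48 being the 1 that excludes 0, and Actb and Tubb5 are lower in fasted liver.

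Over the 7 lists of partners together 5 of 79 genes were called, 6.33%, against 3.95% of all genes (292 higher and 343 lower), all 5 lower in fasted liver: Polr2h, Polr2i, Nktr, Calr and Pdia3. None of the members to which these genes are partners was called. A further 5 of the 79 passed an adjusted p under 0.10 in limma but not 1.5-fold, against 7.34% of all genes. Beside Ywhag these were Taf12 at -0.47, Ppil1 at -0.49, Polr2l at -0.38 and Neu1 at 0.27, also named after their values were seen. The other kept probe of Polr2l gave 0.04 ± 0.20 (adjusted p = 0.89 in limma). At an unadjusted p under 0.05 there were 19 of 79, against 22% of all genes, with 5 of 13 cyclophilins, 4 of 10 MHC class I partners and 3 of 11 polymerase II subunits among them. Of the 21 other reference genes, 5 had an unadjusted p under 0.05. The genes whose 4 ratios came closest to the mean of the 8 members were 4931406E20Rik, Tm6sf1 and Stx3, with root mean square differences of 0.017, 0.020 and 0.022 over 4 arrays, chosen among the brightest probes of all other kept genes.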

How the data were processed

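Livers of 4 fasted and 4 refed mice were compared on 4 two-colour arrays of 1 slide and 1 scan. The authors deposited scanner files of Agilent's Feature Extraction (10.10.1.1 in the header, mm9 positions) with intensity per spot, pixel medians and means, local background and flags, and a table of log2 ratios normalized in limma. Its rows matched the spots by row number (Pearson r of 0.976 to 0.992 over spots of kept probes; over all gene spots 0.532 on replicate 1 and 0.921 to 0.957 on the others, against 0.015 to 0.057 by spot number) and all 4 columns ran as fasted over refed, with medians of -0.12 to 0.06.

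In R 4.3.3 with limma 3.58.1, spots with a local background above 3 times the array's median were left out (0 to 29 per array), a step added after data had been seen. Background was removed by normexp (offset 50), ratios were normalized by loess without control spots, and spots flagged as outliers were left out (197 to 322 per array). No spot was saturated. Median gene spot signals were 40 to 75 in red and 44 to 96 in green, against backgrounds of 25 to 35 and 20 to 32.5. A probe was kept (19719) where the channel of either condition was flagged well above background on each array. Ratios were tested with lmFit and eBayes, two-sided, adjusted by Benjamini-Hochberg over all kept probes. Levels are mean intensity after Aquantile scaling plus or minus the ratio divided by 2 in log2 units. The steps were tested on simulated data.

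A gene was represented by its brightest kept probe. Genes were named by rule: all members, Hprt and called other references, up to 3 called genes per partner list, the pairs of extreme spread, and the 3 genes nearest the members' mean. Names outside this rule, such as partner genes under 1.5-fold and the pair of Gusb and Ppia, were given after values were seen. Members and lists were chosen with earlier results of these data known. Lists other than those of cell types hold textbook partners of the members. In the lists, 2 genes are not reported here, and counts leave them out. Leukocyte markers (4 of 4 kept) averaged -0.11 to 0.08 over arrays. All 8 symbols are current in the GRCm38.p6 RefSeq table. Alternatives covered background, source of the values, normalization, filters, flags, a dye term, separate channels, SAM, treat, thresholds, the probe that stands for a gene, and each replicate left out in turn.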

Additional observations from a re-analysis of the deposited data

Results flagged for a closer look

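Among 42 sets of 4 ratios in which 1 array could lie far from the rest (16 member probes, 21 other reference genes and 5 marker lists), 1 stood apart: the mean of the pancreatic acinar markers, whose gap on replicate 3 was 0.995 of the whole range of the 4 arrays. Chance alone sets about 1 in 20 such groups apart. No member probe did so, and the part of acinar RNA in the members' ratios was not tested.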

How the results depend on the processing

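None of the 8 genes was called under any of the 25 alternatives, and the log2 ratios of Gusb (0.15 to 0.34 over 22 alternatives, with adjusted p from 0.065 where the alternative gives one), Polr2a (0.12 to 0.27) and Ppia (-0.28 to -0.02) kept their direction under all that recomputed them. The median over the 8 genes and the spread between pairs moved by less than the SD between arrays and the SD between pairs. The other 5 genes, none with an interval that excluded 0, changed sign under some, and the cause was not tested. B2m was -0.022 with plain subtraction, -0.033 in Agilent's processed signals, -0.13 with median centring, -0.095 with no normalization within arrays and -0.015 in the deposited ratios. Gapdh was 0.088 and Tbp 0.17 with the background fit on every spot. Tbp was 0.027 with plain subtraction, 0.016 with no correction, 0.034 in Agilent's processed signals and 0.0040 in the deposited ratios, and Ywhaz was 0.012 by the median over its probes. Leaving out each replicate in turn gave -0.036 to 0.14 for B2m, -0.18 to 0.16 for Gapdh, -0.22 to 0.040 for Pgk1, -0.13 to 0.13 for Tbp and -0.092 to 0.064 for Ywhaz. It gave 14 to 16 member probes with an interval inside the 1.5-fold limits (14 without replicate 1, 15 without replicate 2), 0 to 4 member probes with a dye term (0 without replicate 3 and without replicate 4), 0 to 1 other reference genes called (1 without replicate 1, 3 or 4), 208 to 412 probes called higher and 256 to 525 lower, the lowest counts without replicate 3. It gave 3 to 5 partner genes called (3 without replicate 2 or 3).

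The 16 intervals inside the limits became 14 with the background fit on every spot, 11 with median centring, 12 with no normalization within arrays and 17 of 17 with no filter on dim probes. With the background fit on every spot, 5 probes were called higher, 14 lower, 0 other reference genes and 0 partner genes, and 1 member probe had a dye term. The higher and lower calls were 549 and 714 with plain subtraction, and 685 and 904 in Agilent's processed signals, which gave 0 dye terms. Median centring called 635 probes lower and gave 0 dye terms, as did no normalization within arrays. The treat test called 31 higher, 36 lower, 0 other reference genes and 0 partner genes. A 2-fold limit left 99, 132, 0 and 0 of these, and no fold limit gave 935 higher, 1215 lower and 10 partner genes. Of the 21 other reference genes, 1 was called with no filter on dim probes and 1 at an adjusted p under 0.05. Separate channels with the array as a replicate block gave an adjusted p of 0.065 for Gusb, and 0.093 with no replicate block, both under 1.5-fold, and the rebuilt SAM test, which gives no p here, placed it within a false discovery rate of 0.10, also under 1.5-fold. The ratio on an array is itself paired by the array. The array number and signal over background limit these values: the 10-spot Tbp probe could not be read.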
